A study of Mus musculus with 9 samples.

Results

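The proteins of the cytosolic ribosome are encoded by the Rpl and Rps genes, named for the large and the small subunit. Members were taken from the count table by symbol alone: Rpl or Rps followed by a number with an optional letter or copy number, together with Rplp0, Rplp1, Rplp2 and Rpsa, and without pseudogene symbols ending in -ps. This gave 84 of 21939 genes, of which 52 belong to the large and 32 to the small subunit. Divergent paralogues, copies that differ in sequence from the usual gene, made up 7 of the 84 (Rpl3l, Rpl7l1, Rpl10l, Rpl22l1, Rpl36al, Rpl39l and Rps27l), which leaves 77 genes for the standard proteins. The rule uses no measured value.

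Transcripts were measured in LT-HSCs, long-term haematopoietic stem cells, which are the rare bone marrow cells that renew blood for life, of C57BL/6 mice. The aged+Ri libraries hold cells of mice over 80 weeks old kept with Rhosin, a small molecule that inhibits the GTPase RhoA, at 100 µM for the whole 16 h incubation. The aged libraries hold control cells of mice over 80 weeks old, the young libraries control cells of mice of 10 to 16 weeks, and each of the 3 groups has 3 libraries. Cells of all groups were sorted as Lin-, Sca1+, cKit+, CD34- and Flt3- and spent the 16 h at 37 °C in a salt solution with 10% serum at 3% oxygen. The labels do not say how many mice a library holds or whether aged and aged+Ri cells came from the same mice. The p-values therefore rest on the spread between these libraries and may not reflect the spread between mice.

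A ribosome needs each of its core proteins in step with the ribosomal RNA, and surplus copies are degraded. Most ribosomal protein mRNAs start with a C followed by a run of pyrimidines, the 5′ terminal oligopyrimidine (TOP) tract, through which the kinase mTORC1 and the RNA-binding protein LARP1 control their translation and stability together. Haematopoietic stem cells are known for a low rate of protein synthesis, and loss of a single ribosomal protein gene copy causes Diamond-Blackfan anaemia in humans.

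Start-site windows are shown because members that were lower in every aged+Ri library and members that were not can be set side by side at the site of the TOP tract. Each covers 30 bases before and 20 bases from the RefSeq start (GRCm38.p6), 5′ to 3′ on the gene's strand. Capitals mark a tract of a C and at least 4 more pyrimidines, 5 or more in all, that begins within 10 bases of the start. The first 6 are of members whose 3 aged+Ri libraries all lay below the 3 young ones, and the last 4 of members for which they did not (Rpl13 and Rplp0 lay above).
Rps15a: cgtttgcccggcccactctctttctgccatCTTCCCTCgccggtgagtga
Rps12: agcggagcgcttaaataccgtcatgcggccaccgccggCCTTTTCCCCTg
Rpl31: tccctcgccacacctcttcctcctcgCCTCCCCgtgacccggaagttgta
Rps24: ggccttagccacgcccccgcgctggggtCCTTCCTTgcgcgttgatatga
Rpl39: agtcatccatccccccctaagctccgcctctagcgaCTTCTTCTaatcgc
Rpl23: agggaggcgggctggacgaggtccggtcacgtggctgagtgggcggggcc
Rps6: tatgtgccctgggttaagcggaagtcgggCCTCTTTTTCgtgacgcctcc
Rpl13: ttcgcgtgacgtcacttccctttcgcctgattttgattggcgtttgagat
Rplp0: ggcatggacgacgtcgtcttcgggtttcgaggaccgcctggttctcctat
Rpl4: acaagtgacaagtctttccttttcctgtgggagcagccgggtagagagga
The windows lie at chr7:118116128-118116177 on the minus strand for Rps15a, chr10:23787190-23787239 (minus) for Rps12, chr1:39367821-39367870 (plus) for Rpl31 and chr14:24490648-24490697 (plus) for Rps24, for which RefSeq lists a second start at chr14:24490723-24490772 with no such tract. Those of Rpl39 and Rpl23 lie at chrX:37085203-37085252 and chr11:97782420-97782469, both on the minus strand. The window of Rps6 lies at chr4:86857348-86857397 (minus), that of Rpl13 at chr8:123102320-123102369 (plus), that of Rplp0 at chr5:115559437-115559486 (plus) and that of Rpl4 at chr9:64173357-64173406 (plus). Rpl13 and Rpl4 hold pyrimidine runs that begin more than 10 bases before the RefSeq start and so are unmarked. For Rpl4 the GENCODE gene start, chr9:64173375, lies inside that run. A missing mark thus depends on the start used and does not show that a transcript lacks a TOP tract.

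A tract by this definition was found in 53.9% of the 76 start sites listed for 64 of the members, 55.3% for the large and 51.7% for the small subunit, against 30.7% of all 32851 mouse start sites. It was present at 62% of 50 start sites of members whose aged+Ri libraries all lay below the young ones and at 33.3% of 24 start sites of the other tested members. The windows printed above are examples and do not stand for these shares. Tracts of 18, 17 and 14 bases were found at Rpl35, Rpl15 and Rpl14, whose aged+Ri and young libraries overlapped. No tract was found at Rpl5, Rpl9 and Rpl24, which lay below young in every aged+Ri library. Other motifs were searched on both strands over the 300 bases from 250 before to 50 after the start. CCGGAAG, a letter string of ETS-factor sites, was in 35.5% of member windows and 8.86% of all windows. AAGATGGC, the core of YY1 sites, was in 10.5% and 2.75%, and TATAAA, a core promoter string, in 9.21% and 13.6%. These are matches of letters and not measured sites.

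The libraries held 34358101 to 72503142 counts in all, and 82 of the 84 members were among the 15127 genes that passed the filter on low counts. All 10 LT-HSC markers examined were present in every group, with summed levels of 1196 to 1966 CPM (counts scaled by library size and TMM factor) in aged+Ri, 1710 to 2284 in aged and 1658 to 2889 in young libraries. Single markers differed in sign: against young cells 6 were lower and 4 higher in aged+Ri (median log2 change -0.469). Against aged cells 7 were lower and 3 higher (median -0.541), where 52.8% of all genes were lower, and 57.4% against young. At an unadjusted p under 0.05 in edgeR, 3 markers were lower and 2 higher than in young cells (14.4% and 9.06% of all genes). Of these, 1 rose past an adjusted p of 0.05 (0.959% of all genes). Against aged cells 2 were lower and 1 higher at that unadjusted p (4.89% and 4.24%), with 0 past adjustment. A count was found for 15117 to 16333 genes in aged+Ri, 15024 to 17987 in aged and 20129 to 21213 in young libraries. Mitochondrially encoded transcripts took 1.57% to 2.56%, 2.57% to 3.54% and 4.14% to 4.68% of counts in the same order. Summed markers of neutrophils and monocytes (10 genes) lay at 73.4 to 122.9 CPM in aged+Ri, 448.8 to 10190 in aged and 1053 to 3551 in young libraries, those of B and plasma cells (8 genes) at 145.2 to 458.2, 83.6 to 1944 and 922.7 to 16060. The highest of these were aged 3 for the myeloid and young 1 for the B-cell markers, and the part of either in the results below was not tested. Summed erythroid markers (8 genes) lay at 721.9 to 1526 CPM in aged+Ri, 14.9 to 73.4 in aged and 46.8 to 764.4 in young libraries, with Car1, carbonic anhydrase of red cells, at 0 in aged+Ri, and their part was not tested either. Summed NK cell markers lay at 3.48 to 40.6 CPM in aged+Ri and 107.8 to 262.1 in aged libraries. Megakaryocyte and platelet markers lay at 24.2 to 189.1 and 247.8 to 542.2. T cell markers (13.6 to 21.8 against 22.2 to 90.6) and mast cell and basophil markers (0 to 5.34 against 23.1 to 274.2) were lower too. Endothelial and stromal markers overlapped, and the part of all these lists was not tested. Young 2 and young 3 had 2577 and 6400 counts of the Y-linked gene Ddx3y and the other 7 libraries at most 1 each. The labels give no sex, and in comparisons with young 2 and young 3 age and sex cannot be told apart. The labels give sequencing batches, named beside the results they touch.

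Ribosomal protein transcripts took a smaller and more even share of the counts in aged+Ri cells than in young cells, while the 3 aged libraries ran across both. Their share was 7.79%, 7.88% and 7.69% in aged+Ri libraries 1, 2 and 3, 11.93%, 9.42% and 6.86% in aged libraries 1, 2 and 3, and 10.02%, 11.31% and 10.19% in young libraries 1, 2 and 3. The aged+Ri libraries thus lay within 0.2 percentage points of each other and below every young library, and aged 1 and aged 3 were the highest and the lowest of all 9. The means were 7.79% ± 0.0946 in aged+Ri, 9.40% ± 2.54 in aged and 10.51% ± 0.701 in young cells (SD, n = 3 each), a ratio of 0.741 between aged+Ri and young. In bulk libraries, fewer cells of a type and less RNA per cell cannot be told apart.

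**Figure D1:**
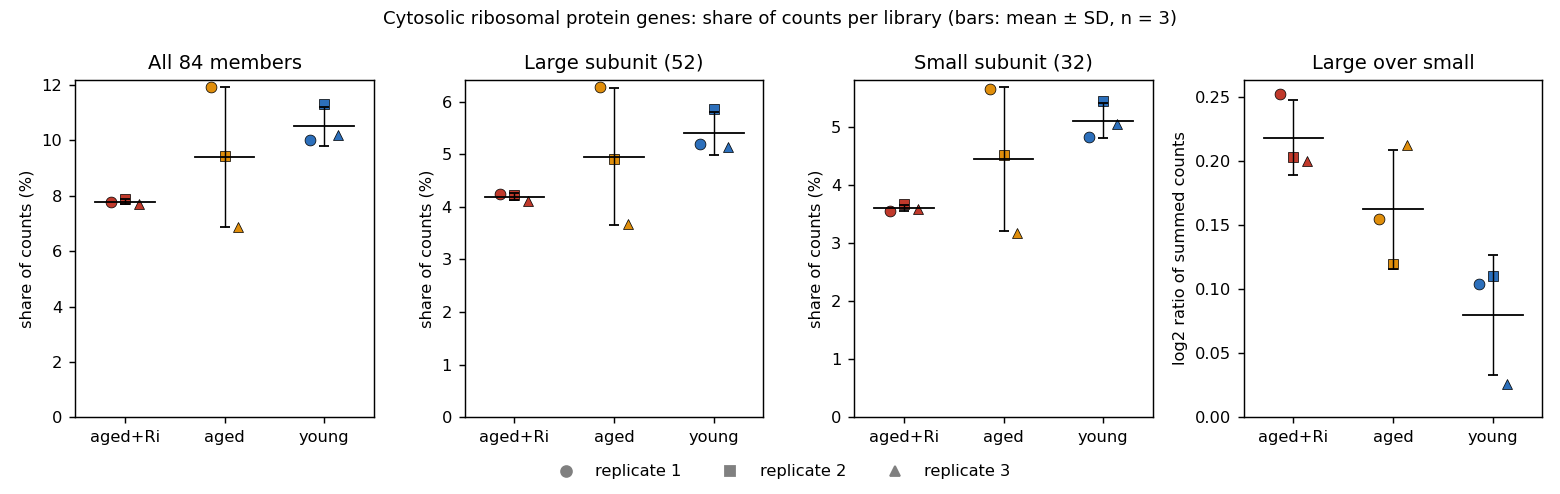
Share of all counts from the 84 ribosomal protein genes, from the 52 large and the 32 small subunit genes (percent), and the log2 ratio of the summed counts of the large over the small subunit, by group. Points are libraries and bars the mean ± SD (n = 3); the aged+Ri points sit together below the young ones in the first 3 panels and above them in the last, and the aged points spread from 6.86% to 11.93% in the first.

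The large subunit genes took 4.24%, 4.22% and 4.11% of counts in aged+Ri, 6.29%, 4.91% and 3.68% in aged and 5.19%, 5.87% and 5.14% in young libraries. The small subunit genes took 3.56%, 3.66% and 3.58% in aged+Ri, 5.65%, 4.52% and 3.18% in aged and 4.83%, 5.44% and 5.05% in young libraries. Both subunits therefore showed the order of the whole. The log2 ratio of large over small was 0.25, 0.20 and 0.20 in aged+Ri, 0.15, 0.12 and 0.21 in aged and 0.10, 0.11 and 0.03 in young libraries, so that each aged+Ri library was above each young one. As a linear ratio the means were 1.16 ± 0.0237 in aged+Ri, 1.12 ± 0.0364 in aged and 1.06 ± 0.0341 in young cells (SD, n = 3 each). The 10 most abundant members made up 32.4% to 34.2% of all member counts in aged+Ri, 29.7% to 31.6% in aged and 25.5% to 31.5% in young libraries.

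Within single sequencing batches the share kept this order for aged+Ri cells. In batch 2 it was 7.79% in aged+Ri 2 and 3 on average, 9.42% in aged 2 and 11.31% in young 2. In batch 1 it was 7.79% in aged+Ri 1 and 11.93% in aged 1, and in batch 3 it was 6.86% in aged 3 and 10.19% in young 3. Young 1 was sequenced in batches 1 and 3. The log2 ratio of large over small was 0.20 in aged+Ri, 0.12 in aged and 0.11 in young libraries of batch 2, 0.25 in aged+Ri and 0.15 in aged of batch 1, and 0.21 in aged and 0.03 in young of batch 3.

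To set single members side by side, levels were divided by the length of an annotated transcript, so the ranks depend on that length. Rps20, with a listed length of 3706 bases, stood at 302 CPM per kilobase although it averaged 1374 CPM in young cells. Among the 77 standard members, the mean over all libraries ran from 48.2 to 6642 CPM per kilobase, with a median of 1236 for the 46 large and 1634 for the 31 small subunit genes. The highest over all libraries were Rps19, the gene most often mutated in Diamond-Blackfan anaemia, at 6642 CPM per kilobase, Rps27 at 6254, Rps14, whose loss marks the 5q- syndrome of human marrow, at 6082, Rps18 at 4102 and Rpl32 at 4067. In young cells alone Rps27 (7066) and Rps14 (6575) stood above Rps19 (6207). Lowest of the standard members were Rpl13a, known outside the ribosome as part of an interferon-induced translation silencer, at 48.2 and Rps10 at 77.7 CPM per kilobase. The gene spans of Rpl13a and Rps10 overlap other annotated genes, as do those of 49 of the 84 members, and no source used here says that reads were assigned by strand, so overlapping genes cannot be told apart. Ribosomal protein genes also have many processed pseudogenes, and the 7 pseudogene rows of the table took 0.0593% to 0.0641% of counts in aged+Ri, 0.0561% to 0.0878% in aged and 0.0878% to 0.1095% in young libraries.

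The comparison of aged+Ri with young cells asks how far treated old cells stand from young ones. No member passed the adjusted threshold (edgeR's quasi-likelihood test, Benjamini-Hochberg adjustment over all genes, 0.05), against 1.45% of all genes tested. At an unadjusted p under 0.05, 34 of 82 members were lower, where the rate over all genes was 14.4%, and 1 was higher, where it was 9.06%. In 53 members all 3 aged+Ri libraries lay below all 3 young ones (19.9% of all genes), and in 2, Rpl13 and Rplp0, above them (12.4% of all genes). The log2 change was negative in 70 members (57.4% of all genes), with a median of -0.483, against -0.241 over all genes tested and 0.162 over the 1893 other genes with a mean of at least 100 CPM, of which 15.7% lay below in every library. Over the 1972 genes of at least 100 CPM, members included, 4.87% passed the adjusted threshold, 15.2% were lower and 22.7% higher at an unadjusted p under 0.05, 17.6% lay below and 22.6% above in every library and 44.4% were negative. With DESeq2 size factors in place of TMM the medians were -0.55 for members and -0.311 for all genes.

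The subunits' medians lay inside each other's quartiles. The median log2 change was -0.451 over 50 large subunit genes (quartiles -0.817 and -0.148) and -0.502 over 32 small subunit genes (quartiles -0.862 and -0.265). The large subunit had 30 of 50 and the small subunit 23 of 32 members below young in every library, and 21 and 13 members lower at an unadjusted p under 0.05. The small subunit genes ran from -1.31 to 0.17, the standard large subunit genes from -1.11 to 0.57, and both members that lay above young in every library belonged to the large subunit.

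**Figure D2:**
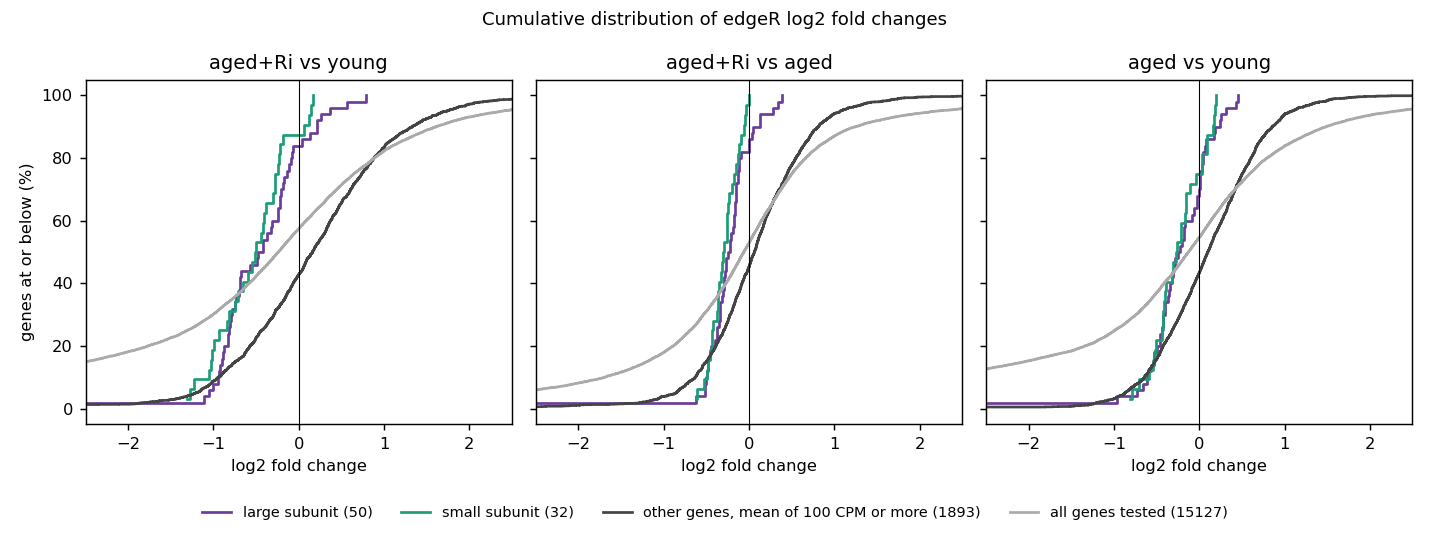
Cumulative share of genes (percent) at or below each edgeR log2 fold change, for the 50 large and 32 small subunit genes tested, the 1893 other genes with a mean of at least 100 CPM and all 15127 genes tested. At their medians the member curves lie left of the other abundant genes in all 3 comparisons. The gap between medians is widest for aged+Ri against young, where they were -0.451 and -0.502 against 0.162.

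Rps15a, a small subunit protein that contacts the ribosomal RNA, gave the smallest p of the members. It was at 611.4, 607.9 and 600.3 CPM in aged+Ri libraries, 1159, 899.7 and 486.2 in aged libraries and 1638, 1487 and 1267 in young libraries. The aged+Ri values were all below the lowest young value and nearly equal, and the aged values fell on both sides of them. The log2 change against young was -1.27 ± 0.30 (SE; edgeR adjusted p = 0.0547), a fold of 0.414.

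Rps12, a small subunit protein, had the largest negative change among the standard members. Its values were 514.4, 585.2 and 528.2 CPM in aged+Ri, 1134, 750.4 and 409.7 in aged and 1478, 1683 and 864.2 in young libraries, with log2 -1.31 ± 0.36 between aged+Ri and young (SE; edgeR adjusted p = 0.0784). Rpl23, a large subunit protein that can also bind the p53 regulator MDM2, had 1029, 1071 and 1043 CPM in aged+Ri, 1881, 1397 and 794.3 in aged and 2514, 2598 and 1666 in young libraries. Its log2 change was -1.11 ± 0.31 (SE; edgeR adjusted p = 0.082). In both genes the aged+Ri and young libraries did not overlap, and young 3 was the lowest of the young.

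Rps24 and Rpl31 are given here because of their place in the alternative tests below, chosen after their values were seen. Rps24, another Diamond-Blackfan anaemia gene, had 888.4, 991.7 and 930.9 CPM in aged+Ri, 1711, 1333 and 757.8 in aged and 2114, 2032 and 1591 in young libraries. Rpl31, at the rim of the large subunit's exit tunnel, had 480.5, 497.9 and 520.8 CPM in aged+Ri, 923.8, 810.5 and 417.1 in aged and 1271, 1017 and 827.4 in young libraries. Their log2 changes against young were -1.03 ± 0.29 and -1.06 ± 0.31 (SE; edgeR adjusted p = 0.0851 and 0.0896), and in both the aged+Ri libraries lay below every young library. Rps27a, which is made as a fusion with ubiquitin, had 820.6, 655.2 and 723.6 CPM in aged+Ri, 1253, 1069 and 641.0 in aged and 1443, 1345 and 1416 in young libraries (log2 -0.93 ± 0.27, SE; edgeR adjusted p = 0.0891). Here too no aged+Ri library reached the young range.

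**Figure D3:**
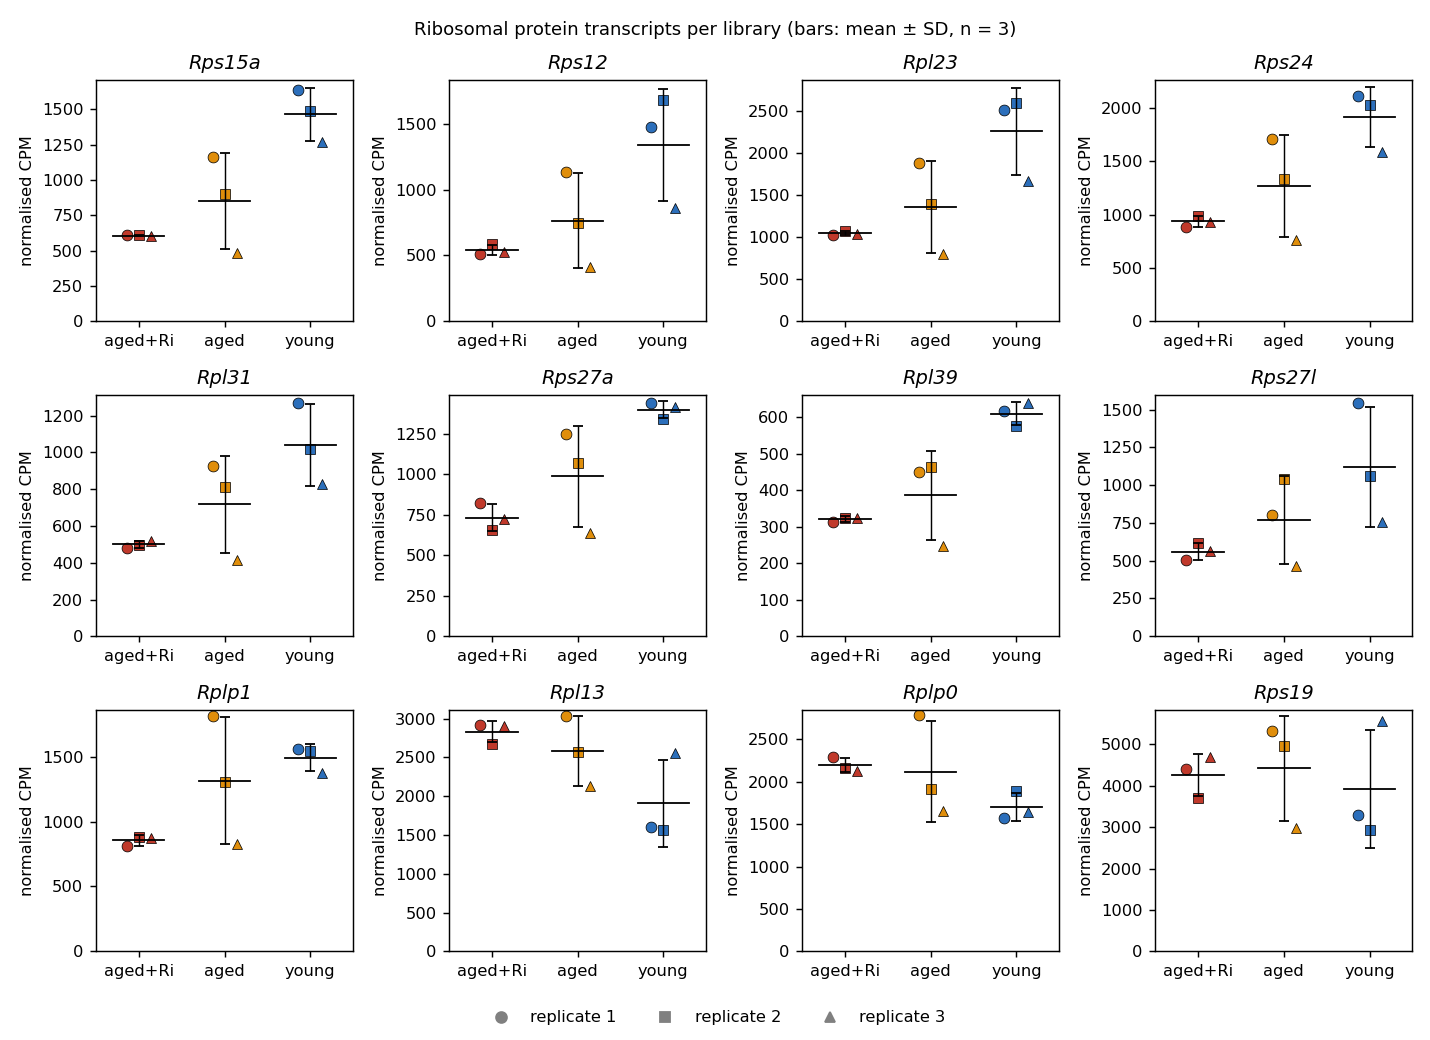
Normalised CPM of 12 members in each library, by group, with bars for the mean ± SD (n = 3). In Rps15a, Rps12, Rpl23, Rps24, Rpl31, Rps27a, Rpl39, Rps27l and Rplp1 every aged+Ri point is below every young point, in Rpl13 and Rplp0 every aged+Ri point is above, and in Rps19 they overlap.

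Other tools and settings drew the line at different places. DESeq2 called 16 members lower in aged+Ri than in young cells, limma-voom with sample weights called 6 (Rpl23, Rpl31, Rps12, Rps15a, Rps24 and Rps27a), and edgeR with the sequencing batch as a covariate called 9, none of them higher. Over all genes these fits called 6.98%, 2.1% and 0.35% lower. With that covariate the median over members was -0.8, and within batch 2, with 2 aged+Ri libraries and 1 young library, it was -0.576. Without young 3 the edgeR test called 3 members (Rpl23, Rps12 and Rps15a; 0.896% of all genes were called lower), and without young 2 the members lower at an unadjusted p under 0.05 numbered 15 (14.2% of all genes). With young 1, which had at most 2 counts of any of 4 Y-linked genes examined, as the only young one, the median was -0.539, with 0 members called and 22 lower at an unadjusted p under 0.05 (9.76% of all genes).

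Of the members that lay higher, Rpl13 had 2919, 2676 and 2902 CPM in aged+Ri, 3031, 2577 and 2137 in aged and 1604, 1570 and 2555 in young libraries. It is a large subunit protein, and its log2 change against young was 0.57 ± 0.25 (SE; unadjusted p = 0.043, edgeR adjusted p = 0.2). Rplp0, the base of the ribosomal stalk that recruits elongation factors, had 2289, 2168 and 2131 CPM in aged+Ri, 2787, 1921 and 1653 in aged and 1574, 1893 and 1644 in young libraries (log2 0.37 ± 0.24, SE; edgeR adjusted p = 0.385). The aged+Ri values of both genes were above all young values by a small margin.

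The stalk proteins differed in the sign of their values. Rplp1 and Rplp2, the acidic proteins bound to Rplp0, had negative changes against young of -0.80 ± 0.28 and -0.94 ± 0.30 (SE; edgeR adjusted p = 0.124 and 0.102), whereas that of Rplp0 was positive. Rplp2 had 649.5, 677.0 and 617.5 CPM in aged+Ri, 1253, 880.6 and 574.1 in aged and 1218, 1511 and 992.5 in young libraries. None of the 3 passed the adjusted threshold, and the difference between their changes was not tested.

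Rpl5 and Rpl11 join the 5S RNA in the particle that binds MDM2 when ribosome assembly fails. Rpl5 averaged 1256 ± 75.8 CPM in aged+Ri, 1543 ± 629 in aged and 2221 ± 694 in young cells, and Rpl11 averaged 387.8 ± 6.05, 539.8 ± 172 and 673.1 ± 33.7 CPM in the same groups (SD, n = 3 each). Both lay below young in every aged+Ri library, with log2 changes of -0.82 ± 0.33 and -0.80 ± 0.28 (SE; edgeR adjusted p = 0.159 and 0.124).

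Several members with known roles outside the core of translation stayed within the spread of the libraries. Rps6, the substrate of S6 kinase, averaged 1578 ± 119 CPM in aged+Ri, 1614 ± 427 in aged and 1515 ± 135 in young cells, and Rps3, which also acts in DNA repair, 1611 ± 99.8, 1676 ± 563 and 1459 ± 144 CPM (SD, n = 3 each). Rps19 averaged 4266 ± 512, 4419 ± 1260 and 3929 ± 1430 CPM, and Rpsa, also known as the laminin receptor, 1030 ± 137, 1231 ± 391 and 1204 ± 246 CPM (SD, n = 3 each). Groups overlapped in each of these, as in Rpl13a at 42.9 ± 5.85, 48.5 ± 22.9 and 59.8 ± 22.1 CPM. Rpl38, which in the mouse favours translation of Hox mRNAs, had 526.2, 427.4 and 531.4 CPM in aged+Ri, 809.6, 614.6 and 360.7 in aged and 754.4, 773.1 and 555.3 in young libraries. Its aged+Ri libraries all lay below the young ones, by -0.49 ± 0.31 on the log2 scale (edgeR adjusted p = 0.353).

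**Figure D4:**
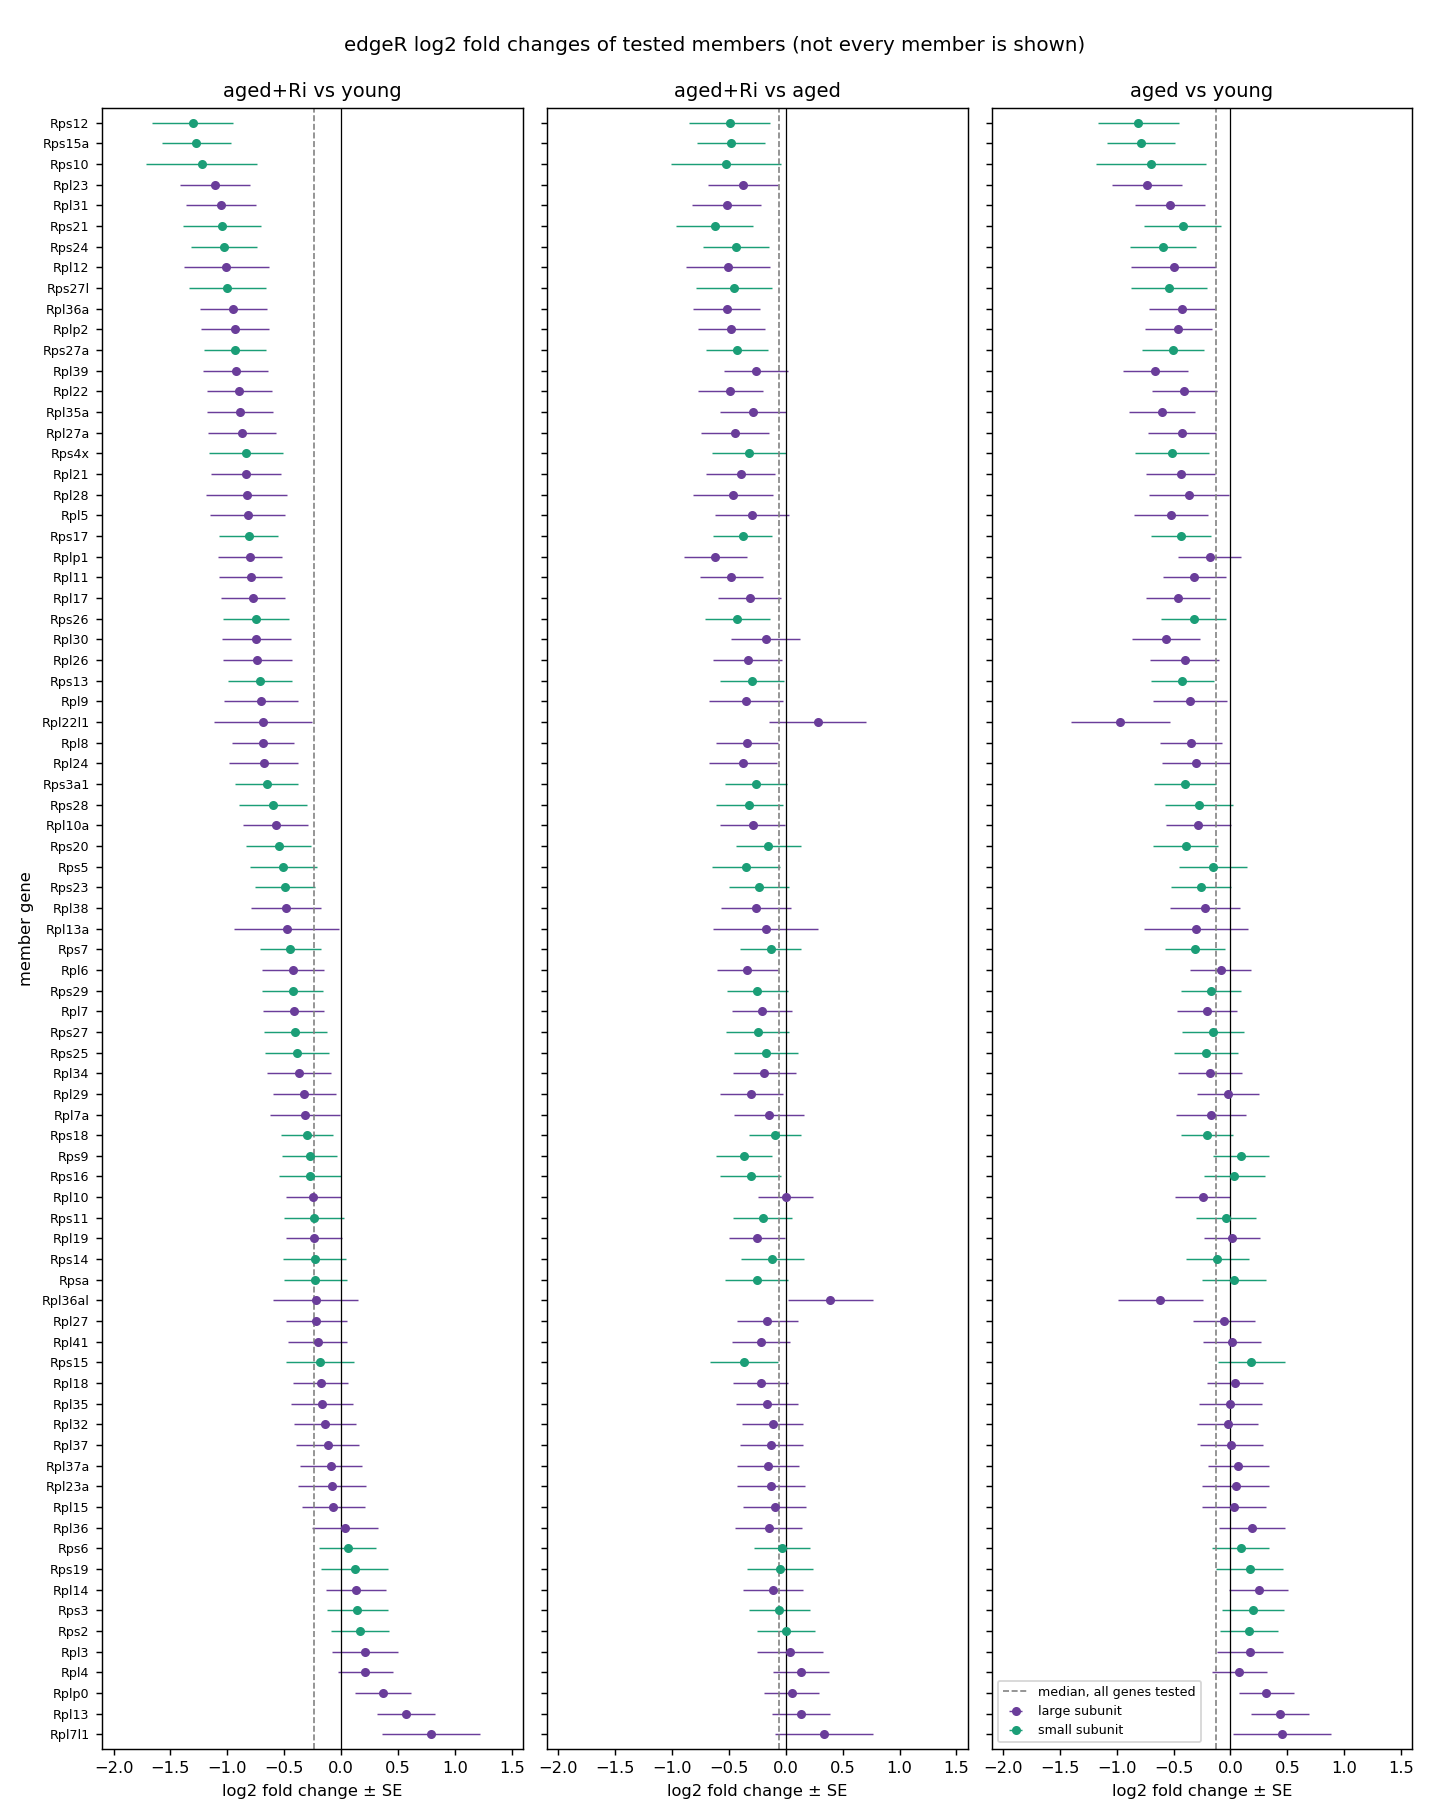
edgeR log2 fold change ± SE of tested members, ordered by aged+Ri against young, in the 3 comparisons; not every member is shown, and Rpl3l, at -9.78, is outside the axis. The dashed line is the median of all genes tested. Most members lie left of 0 in the first 2 panels, and Rps12, Rps15a and Rpl23 stand near the left end of the first and the third.

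The comparison of aged+Ri with aged cells asks what the inhibitor did in old cells. Values of members were mostly lower in treated cells, and in all members but Rpl3l the ranges of the 2 groups overlapped. No gene of the table passed the adjusted threshold in this comparison (edgeR's quasi-likelihood test, 0 of 15127, where 740 were lower and 642 higher at an unadjusted p under 0.05). Among the members 2 were lower at an unadjusted p under 0.05, Rpl3l and Rplp1, where the rate over all genes was 4.89%, and 0 were higher, where it was 4.24%. With sequencing batch as a covariate 12 members were lower at that p, where the rate over all genes was 3.97%. DESeq2 called 320 and limma-voom 55 genes, with 0 members among them.

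The log2 change was negative in 73 of 82 members (52.8% of all genes), with a median of -0.262 against -0.061 over all genes and 0.063 over other genes of at least 100 CPM. It was -0.236 over the large and -0.301 over the small subunit, where 31 of 32 genes were negative. Only Rpl3l had no overlap between the groups, against 8.66% of all genes, and 0 members lay above in every library, against 7.87%. Over all genes of at least 100 CPM, 6.03% were lower and 9.63% higher at an unadjusted p under 0.05, 9.99% lay below and 13.8% above in every library and 47% were negative. In batch 1 the median over members was -0.59 (aged+Ri 1 and aged 1) and in batch 2 -0.373 (aged+Ri 2 and 3 and aged 2).

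The aged libraries ran in 1 order in nearly every member, and since aged 1, 2 and 3 were sequenced in batches 1, 2 and 3, library and batch cannot be told apart here. Of the 77 standard members, 74 were higher in aged 1 than in aged 2 and all 77 were higher in aged 2 than in aged 3, with median log2 differences of 0.30 and 0.72. Aged 3 was the lowest of all 9 libraries in 64, and the aged+Ri values lay between the lowest and the highest aged library in 67. The ratio of the highest to the lowest library of a group had a median of 1.14 in aged+Ri, 1.96 in aged and 1.29 in young cells. These counts and ratios were not computed over other genes, so they do not show that the order is particular to the members. Without aged 3, 31 members were lower in aged+Ri cells at an unadjusted p under 0.05 (4.84% of all genes in that fit) and the median over members was -0.536; without aged 1 the median was -0.112. Aged 3 also held the highest summed neutrophil and monocyte markers and the only counts of Rpl39l above 4, and the part of these in its low ribosomal protein level was not tested.

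Rplp1 had the smallest p of the standard members in this comparison. Its values were 809.4, 885.1 and 876.4 CPM in aged+Ri, 1813, 1306 and 829.5 in aged and 1560, 1549 and 1374 in young libraries. Aged 3 lay inside the aged+Ri range, and aged 1 and aged 2 above it. The log2 change against aged was -0.62 ± 0.28 (SE; unadjusted p = 0.0451, edgeR adjusted p = 0.53). Rps21, of the small subunit, had a change of -0.63 ± 0.34 (SE; edgeR adjusted p = 0.621). Rps21 had 273.1, 314.1 and 287.8 CPM in aged+Ri and 690.5, 398.0 and 260.9 in aged libraries, so that aged 3 was below the treated values.

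Positive values in this comparison were few, and the highest were of divergent paralogues: Rpl36al at 0.39 ± 0.37, Rpl7l1 at 0.34 ± 0.43 and Rpl22l1 at 0.28 ± 0.43 (log2 ± SE), all with overlapping groups. Those of Rpl36al and Rpl22l1 turned negative without aged+Ri 1, at -0.056 and -0.146. Rpl4, a large subunit protein that lines the exit tunnel, had 2334, 1868 and 2009 CPM in aged+Ri and 2269, 1992 and 1401 in aged libraries (log2 0.13 ± 0.24, SE). Without aged 3 its value was -0.073, so its sign rests on that library.

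The comparison of aged with young cells asks what differs with the age of the mouse. Y-linked counts were high in young 2 and young 3 alone, so in these libraries age and sex cannot be told apart. No member passed the adjusted threshold (edgeR's quasi-likelihood test), against 5 genes or 0.0331% of all genes tested. At an unadjusted p under 0.05, 5 of 82 members were lower (10.1% of all genes) and 0 higher (6.09%), and 7 members lay below young in every aged library (16.1%) and 0 above (8.58%). Over genes of at least 100 CPM these shares were 6.8% and 11.8%, and 8.47% and 13.5%, with 0 past adjustment and 44.4% negative. The members' count at an unadjusted p under 0.05 depended on the fit: it was 25 lower with sequencing batch as a covariate, where the rate over all genes was 8.16%, and 10 with limma-voom, where it was 11.8%. The log2 change was negative in 59 members (54.7% of all genes), with a median of -0.253 over members, -0.234 over the large and -0.27 over the small subunit, against -0.126 over all genes and 0.098 over other genes of at least 100 CPM.

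The median rested on single aged libraries: it was -0.006 without aged 3 and -0.439 without aged 1. Without aged 3, 0 members were lower and 2 higher at an unadjusted p under 0.05 (8.42% and 4.38% of all genes), and the median was 0.026 over the large and -0.032 over the small subunit. Within batch 2 it was -0.161 (aged 2 and young 2), and within batch 3 it was -0.731 (aged 3 and young 3). The 7 members that lay below in every library were Rps15a, Rps27a, Rpl39, Rpl35a, Rpl30, Rpl22l1 and Rpl36al. Rpl39, a short protein of the exit tunnel, had 312.8, 324.8 and 325.0 CPM in aged+Ri, 448.8, 462.8 and 245.9 in aged and 615.5, 575.6 and 637.8 in young libraries. Each aged value was below each young one, by -0.66 ± 0.28 on the log2 scale (SE; edgeR adjusted p = 0.276), while aged+Ri values fell inside the aged range. For Rps15a it was -0.79 ± 0.30, for Rps12 -0.81 ± 0.36 and for Rpl23 -0.73 ± 0.31 (SE; edgeR adjusted p = 0.245, 0.284 and 0.269). For Rpl13 and Rplp0 the values were positive at 0.44 ± 0.25 and 0.32 ± 0.24 (SE; edgeR adjusted p = 0.404 and 0.544).

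Single libraries carried most counts of some divergent paralogues. Rpl3l, the striated muscle copy of Rpl3, had 0, 1 and 0 counts in aged+Ri, 4, 46 and 30 in aged and 11, 3 and 868 in young libraries. Young 3 thus held nearly all of it, and the ratio of aged+Ri to young was 0.00109 (exact Poisson 95% interval 2.76e-05 to 0.00609, counting error only). Against aged the ratio was 0.0186 (0.000464 to 0.106). Its partner Rpl3 averaged 1172 ± 67.2 CPM in aged+Ri, 1140 ± 451 in aged and 1012 ± 128 in young cells (SD, n = 3 each) and overlapped between groups.

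Rpl39l and Rpl10l, copies used in the testis, did not pass the filter on low counts. Rpl39l had 0 counts in all aged+Ri libraries, 0, 0 and 137 in aged and 4, 1 and 0 in young libraries, so that it was seen almost wholly in aged 3. Rpl10l had 0, 1 and 0 counts in aged+Ri, 0, 0 and 5 in aged and 4, 4 and 1 in young libraries. Their partners Rpl39 and Rpl10 were abundant in every library, with Rpl10 at 1206 ± 216 CPM in aged+Ri, 1207 ± 175 in aged and 1431 ± 146 in young cells (SD, n = 3 each).

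Rps27l, a p53 target gene whose product can replace Rps27, was the most abundant divergent paralogue by CPM. It had 503.0, 615.0 and 562.7 CPM in aged+Ri, 802.8, 1041 and 462.0 in aged and 1544, 1060 and 754.9 in young libraries. The aged+Ri libraries lay below all young ones, by -0.999 ± 0.34 on the log2 scale (SE; edgeR adjusted p = 0.115), and aged 3 below the aged+Ri libraries. Rps27 itself had 1995, 1485 and 2052 CPM in aged+Ri, 2678, 2456 and 1439 in aged and 2168, 2264 and 2881 in young libraries, a log2 change of -0.40 ± 0.27 between aged+Ri and young (SE; edgeR adjusted p = 0.395).

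Rpl22l1, which can take the place of Rpl22, had 233.0, 101.0 and 129.6 CPM in aged+Ri, 123.3, 197.2 and 61.2 in aged and 261.2, 197.6 and 287.6 in young libraries. Aged values were all below young ones, by -0.97 ± 0.43 on the log2 scale (SE; edgeR adjusted p = 0.29), the largest negative value of a tested member but Rpl3l in that comparison. Rpl22 had 236.2, 227.2 and 228.0 CPM in aged+Ri, 407.8, 347.6 and 214.9 in aged and 416.5, 400.0 and 469.1 in young libraries, and differed between aged+Ri and young by -0.89 ± 0.29 (SE; edgeR adjusted p = 0.102). The groups aged+Ri and young were apart for Rpl22 and overlapped for Rpl22l1.

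Rpl36al had 167.9, 67.6 and 94.3 CPM in aged+Ri, 89.5, 95.6 and 66.4 in aged and 155.2, 113.4 and 116.8 in young libraries. Its X-linked partner Rpl36a had 370.7, 377.0 and 366.2 CPM in aged+Ri, 736.7, 528.2 and 333.6 in aged and 771.6, 715.5 and 661.6 in young libraries, with log2 -0.95 ± 0.29 between aged+Ri and young (SE; edgeR adjusted p = 0.0987). Rpl36a was lower in every aged+Ri than young library, and Rpl36al was not. Rpl7l1, a relative of Rpl7, had 251.0, 122.1 and 224.9 CPM in aged+Ri, 108.5, 153.5 and 210.6 in aged and 52.8, 143.3 and 150.2 in young libraries. Its log2 change of 0.79 ± 0.43 against young was the highest of the tested members, with overlapping groups (SE; edgeR adjusted p = 0.286). Rpl7 averaged 1431 ± 75.6 CPM in aged+Ri, 1654 ± 475 in aged and 1911 ± 332 in young cells, and X-linked Rps4x averaged 1600 ± 198, 2001 ± 828 and 2859 ± 768 CPM (SD, n = 3 each).

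Ribosomal proteins whose symbols the rule does not take were examined beside the members. Fau, the precursor of a small subunit protein, had 544.8, 468.6 and 495.3 CPM in aged+Ri, 775.6, 600.8 and 408.1 in aged and 646.7, 688.9 and 493.5 in young libraries. Rack1, a scaffold on the small subunit, averaged 1278 ± 224 CPM in aged+Ri, 1503 ± 594 in aged and 1655 ± 347 in young cells (SD, n = 3 each). Neither passed the edgeR test in any comparison.

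A list of elongation factors and other mRNAs with TOP tracts was split by sign. Of its 16 genes 7 were lower in aged+Ri than in young cells at an unadjusted p under 0.05 (14.4% of all genes and 15.2% of those of at least 100 CPM) and 0 higher (9.06% and 22.7%), with a median log2 change of -0.524, and 0 passed adjustment. The elongation factors themselves were mostly positive: Eef2, which moves the ribosome along the mRNA, was at 0.40, Eef1d at 0.75, Eef1g at 0.14 and Eef1a1, which brings the aminoacyl-tRNA, at 0.10, and none had an unadjusted p under 0.05. Negative values came from Eef1b2 and from TOP mRNAs with other roles, such as Pabpc1, the poly(A)-binding protein, at -0.65. Eef1b2, part of the exchange factor of elongation factor 1, had 522.6, 761.8 and 607.4 CPM in aged+Ri, 1217, 817.6 and 516.8 in aged and 1828, 1690 and 808.1 in young libraries. Its log2 change was -1.19 ± 0.37 between aged+Ri and young (SE; edgeR adjusted p = 0.0964), and its aged+Ri libraries all lay below young. The median was -0.147 for aged+Ri against aged and -0.268 for aged against young.

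The list of initiation factors and their regulators had mostly positive values. In aged+Ri against young cells 24 of 27 had a positive change (42.6% of all genes and 55.6% of those of at least 100 CPM), with a median of 0.515, and 4 rose past the adjusted threshold (0.959% and 3.55%). The list includes the repressors Eif4ebp1 and Eif4ebp2, while the TOP mRNAs Eif3e, Eif3f, Eif3h and Eif4b, with changes of -0.55, -0.84, 0.41 and -0.03, were counted in the list before. Eif6, which keeps the large subunit from joining too early, had 195.1, 128.3 and 121.8 CPM in aged+Ri, 73.5, 62.5 and 90.8 in aged and 21.8, 32.6 and 45.5 in young libraries. Its 3 groups did not overlap, and it rose by 2.16 ± 0.39 on the log2 scale against young (SE; edgeR adjusted p = 0.0219). Eif5, the activator of GTP hydrolysis at the start codon, had 2294, 713.3 and 1495 CPM in aged+Ri, 480.2, 545.2 and 443.8 in aged and 342.9, 448.5 and 483.1 in young libraries (log2 1.82 ± 0.36, SE; edgeR adjusted p = 0.031). The aged+Ri libraries were above the others, with aged+Ri 1 the highest. Eif4ebp1, an mTORC1 substrate that holds back the cap-binding factor, and Eif3g, a subunit of initiation factor 3, rose by 1.77 ± 0.36 and 1.33 ± 0.30 (SE; edgeR adjusted p = 0.0345 and 0.0468). The calls depended on which libraries were kept. Without aged+Ri 1 or without aged+Ri 3 none of the 4 passed, with edgeR adjusted p of 0.0879 to 0.18, and without young 1 none passed either. Without aged+Ri 2 all 4 passed, with edgeR adjusted p of 0.0111 to 0.0421. Eif6 passed under 17, Eif4ebp1 under 14, Eif5 under 13 and Eif3g under 6 of 21 alternatives, 1 of them chosen after seeing the data, with a positive change under all of them. Median changes were 0.318 for aged+Ri against aged and 0.205 for aged against young, with 0 genes past adjustment in either.

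**Figure D5:**
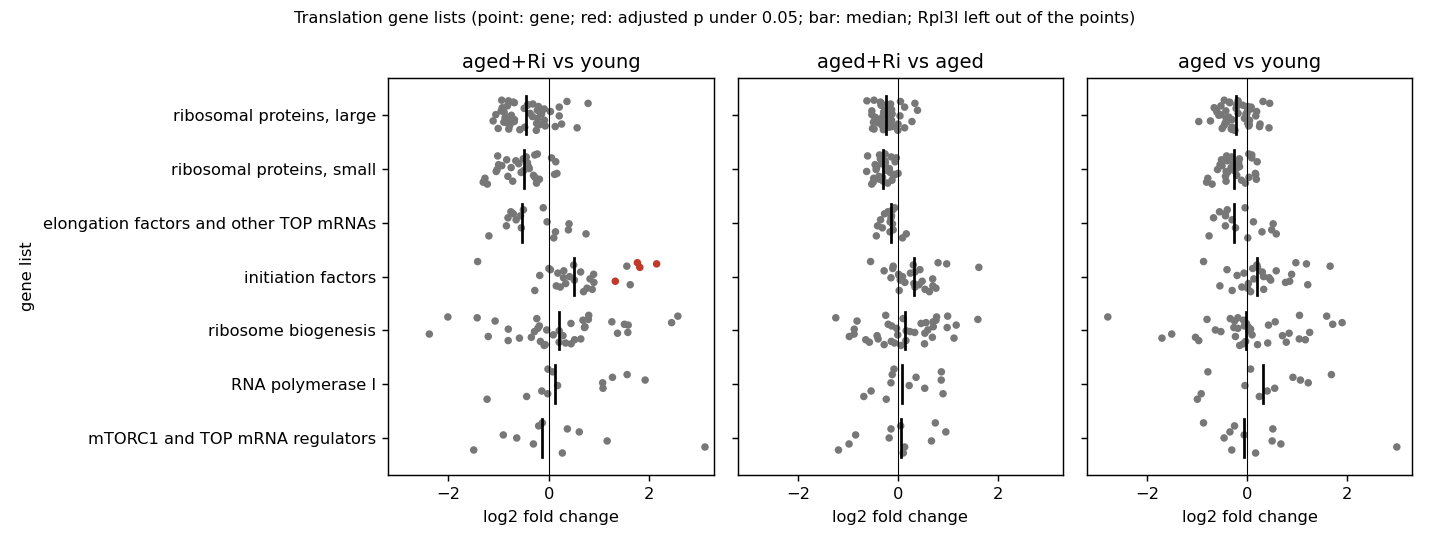
edgeR log2 fold change of each tested gene of 7 translation lists (points) in the 3 comparisons, with the list's median as a bar; red points passed an adjusted p of 0.05, and Rpl3l is left out of the points. The medians for aged+Ri against young were -0.451 and -0.502 for the subunits, -0.524 for elongation factors and other TOP mRNAs and 0.515 for initiation factors, and the 4 red points are Eif6, Eif5, Eif4ebp1 and Eif3g.

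Factors that assemble ribosomes had mixed signs. Of 38 biogenesis genes 21 had a positive change in aged+Ri against young cells, with a median of 0.211, 7 higher (9.06% of all genes) and 2 lower (14.4%) at an unadjusted p under 0.05 and 0 past adjustment. Lsg1, a GTPase of late large subunit maturation, had 67.2, 24.7 and 35.7 CPM in aged+Ri, 43.8, 19.2 and 23.4 in aged and 5.93, 4.49 and 12.8 in young libraries (log2 2.46 ± 0.63, SE; edgeR adjusted p = 0.069). Sbds, the Shwachman-Diamond syndrome gene that helps release Eif6, averaged 527.2 ± 145 CPM in aged+Ri, 323.5 ± 37.9 in aged and 219.7 ± 127 in young cells (SD, n = 3 each; edgeR adjusted p = 0.0926 for aged+Ri against young). For both genes the aged+Ri libraries lay above every young one.

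The 12 genes of RNA polymerase I and its factors had a median of 0.13, and Polr1c, its smallest p, had 171.1, 96.1 and 95.8 CPM in aged+Ri, 91.9, 72.9 and 85.4 in aged and 78.7, 54.9 and 37.4 in young libraries. The 11 regulators of mTORC1 and TOP mRNAs had a median of -0.126, with Rheb, the GTPase that switches mTORC1 on, at 509.7 ± 130 CPM in aged+Ri, 320.3 ± 112 in aged and 226.8 ± 64 in young cells (SD, n = 3 each; edgeR adjusted p = 0.087 for aged+Ri against young). The 4 genes of MDM2 and p53 surveillance had a median of 0.747, and among them Cdkn1a, the p53 target that stops the cell cycle, was at 107.6, 86.8 and 81.7 CPM in aged+Ri, 33.2, 11.6 and 54.2 in aged and 4.06, 39.6 and 84.03 in young libraries. Its aged+Ri libraries were above the aged ones and overlapped young 3 (edgeR adjusted p = 0.606 against aged). None of these lists had a gene past the adjusted threshold.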

How the data were processed

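The study's table holds estimated counts per gene symbol for the 9 libraries, deposited unscaled and partly fractional: 71.6% to 80.9% of a library's values were whole within 0.005, but only 5.95% to 10.7% of those of the members. How reads shared between genes were divided is not given in the sources used here, so counts of members with near-identical copies are uncertain. The labels' protocols name SMART-Seq v4 for cDNA and Nextera XT for the libraries. The submitters' processing notes name cutadapt 1.18, STAR 2.7.0, SAMtools, featureCounts, R 4.2.0 and the mouse build GRCm38 (mm10), with no role or order.

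Estimated counts were rounded, filtered with filterByExpr, scaled by TMM and tested with edgeR 4.0.16's quasi-likelihood test in R 4.3.3, robust, over all 9 libraries in 3 groups (6 residual degrees of freedom), with Benjamini-Hochberg adjustment over 15127 genes at 0.05. DESeq2 1.42.0 and limma 3.58.1 were alternatives, and the fits were tested on simulated data. Shares use the rounded counts of all genes. Lengths are of the shortest principal transcript in GENCODE vM21. Counts of every pair of libraries differed beyond sampling noise. Depth limits low genes: 3 counts equal 0.0414 to 0.0873 CPM, and intervals cover counting error only.

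Members, gene lists and tests were chosen with earlier results of these data known. Named were up to 4 members per direction and comparison with the smallest p, up to 3 without overlap by size, the 5 highest and 5 lowest per kilobase, the divergent paralogues and their partners, members with a known extra role, and up to 4 genes of each further list. Some genes that this rule takes are not reported here.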

Additional observations from a re-analysis of the deposited data

How the results depend on the processing

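Across the 21 alternatives and the added one, the members' median log2 change of aged+Ri against young kept its negative sign, as did that of aged+Ri against aged and that of aged against young, although without aged 3 the last was -0.006 and its large subunit median turned to 0.026. Members called lower in aged+Ri than in young cells numbered 0 under the design used, and 1 (Rps15a) with DESeq2 size factors, with total counts, with the stricter filter (10 counts in every library of a group and 5 CPM on average) and with the 2 groups fitted alone, 16 with DESeq2, 6 with limma-voom and 9 with sequencing batch as a covariate, and between 0 and 3 when 1 library was left out. With the batch covariate the medians over members and over each subunit were -0.8, with the stricter filter that of the small subunit was -0.603, and that of the large subunit ran from -0.544 to -0.327 when 1 library was left out. The cause was not tested.

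All genes called for aged+Ri against young numbered 1862 with DESeq2, 644 with limma-voom, 57 with the 2 groups alone and 18 to 532 with 1 library left out. For aged+Ri against aged they numbered 1 with TMM computed without the members, 1 with total counts, 320 with DESeq2, 55 with limma-voom, 11 without a filter, 2 with the 2 groups alone, 5 with the batch covariate and 0 to 6 with 1 library left out, and for aged against young 744 with DESeq2, 18 with limma-voom, 20 without a filter, 1 with the 2 groups alone and 2 to 80. When young 2 and young 3 were both left out, an alternative chosen after seeing the data in which young 1 is assumed to vary like the other groups, they numbered 735, 40 and 358. The replicate numbers did not pair the libraries (correlations of -0.072 to 0.122). A replicate block gave 226, 2 and 6 genes and 0 members.

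The aged+Ri share was 7.948% without mitochondrially encoded genes and 7.69% without the divergent paralogues. Of the named members, signs reversed for aged+Ri against aged alone: Rpl36al ran from -0.056 (without aged+Ri 1) to 0.644 with 1 library left out, Rpl22l1 from -0.146 (without aged+Ri 1; -0.107 without aged 3) to 0.74, and Rpl4 from -0.073 (without aged 3) to 0.225. Rps15a for aged+Ri against young ran from -1.63 to -1.196 with adjusted p from 0.00497 to 0.18 and was called under 9 of the 21 alternatives that apply to single genes, the added one included.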
